A study of Mus musculus with 12 samples.

Results

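The autophagy machinery and its cargo receptors were followed as 43 genes, chosen by name among the 54532 genes listed for mouse muscle. The rule took every protein-coding gene whose symbol starts with Atg and a number, which gave 19 genes, and 24 further genes by symbol, among them Ulk1, Becn1, Sqstm1, Pink1 and the LC3 and GABARAP genes. The rule itself uses names alone, but the genes were picked with earlier results of these data known. The muscle was the gastrocnemius of the calf, taken from female ICR SCID mice, an immunodeficient strain, with 4 biological replicates in each of 3 groups. TL mice bore HT1080 tumours under the skin and were given the RET kinase inhibitor selpercatinib for 19 days, in 1 gavage a day of 30 mg/kg. TV mice carried the same tumours and received vehicle. NTV mice had no tumour and received vehicle. HT1080 is a human fibrosarcoma cell line, so the tumour is a graft that grows only in a host without a working adaptive immune system. The labels name HT1080 as cell line for the tumour-free mice too; the grouping here follows the group label. The study's question is whether the drug lessens cachexia, in which a tumour makes muscle and fat waste.

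Autophagy wraps part of the cytoplasm in a double membrane and delivers it to the lysosome. The ULK1 kinase complex starts the membrane, a class III phosphatidylinositol 3-kinase (PI3K) complex marks it with the lipid PI3P, a chain of conjugation enzymes attaches LC3 and GABARAP proteins to it, and receptors such as SQSTM1 link cargo to those proteins. In skeletal muscle the process turns over mitochondria and proteins during fasting, denervation and wasting, and transcription factors of the FoxO family are known to raise several of its genes. A transcript level does not measure how much material reaches the lysosome.

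In mice that carried a tumour and received vehicle, 16 of the 41 testable autophagy genes rose and 2 fell relative to tumour-free mice. Over all tested genes 13.8% rose and 11.5% fell. The autophagy genes that rose hold all 5 LC3 and GABARAP genes, the receptors Sqstm1 and Optn, the mitophagy genes Pink1, Bnip3 and Bnip3l, and the starter kinase Ulk1. Of 28 alternative fits, the call was kept in 11 for Bnip3, 5 for Gabarapl1, 17 for Gabarapl2 and 18 for Gabarap. Among the genes that rose Sqstm1 gave the largest rise, to 2.16 times the tumour-free mean. Trp53inp2, a cofactor that binds LC3 and GABARAP proteins, fell to 0.390 of it. None of the 7 conjugation genes and none of the 4 testable Atg4 proteases was called. In tumour-bearing mice that received selpercatinib, no autophagy gene passed the test relative to vehicle, beside 0.235% of all tested genes called higher and 0.282% lower. Ulk1 came nearest, at an adjusted p of 0.07 by limma. Levels are FPKM, a length-scaled read level, and changes are log2 differences of FPKM + 0.5 ± SE from limma, which understate the change of weakly expressed genes; a gene was called at a Benjamini-Hochberg adjusted p under 0.05 over all 12754 genes whose mean FPKM reached 0.5.

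By the files' coordinates (mm10), Sqstm1 lies at chr11:50199366-50210827, Ulk1 at chr5:110784488-110810097, Bnip3 at chr7:138890836-138909519 and Trp53inp2 at chr2:155381059-155389850. Promoter sequence is shown for 4 genes: Sqstm1, Ulk1 and Bnip3, which were called higher in TV than in NTV, and Trp53inp2, which was called lower. The call of Bnip3 was kept in 11 of 28 alternative fits and its TV and NTV libraries overlapped. For each of the other genes shown the call was kept in 27 of 28. The 4 genes were picked after their values were seen. Each line gives the 250 bases before the transcript start in RefSeq, build GRCm38.p6, in the direction of the gene. For Trp53inp2 the RefSeq start lies inside the gene by the files' coordinates, so its window lies after the gene start given above. Capitals mark 3 motifs, each on either strand. They are the GC box, which has the letters GGGCGG, the CCAAT box, and the E-box, which has CACGTG, the core of the site that the lysosome and autophagy regulator TFEB binds. The regions are chr11:50210821-50211070 (minus strand) for Sqstm1, chr5:110810082-110810331 (minus strand) for Ulk1, chr7:138909507-138909756 (minus strand) for Bnip3 and chr2:155381606-155381855 (plus strand) for Trp53inp2.
Sqstm1: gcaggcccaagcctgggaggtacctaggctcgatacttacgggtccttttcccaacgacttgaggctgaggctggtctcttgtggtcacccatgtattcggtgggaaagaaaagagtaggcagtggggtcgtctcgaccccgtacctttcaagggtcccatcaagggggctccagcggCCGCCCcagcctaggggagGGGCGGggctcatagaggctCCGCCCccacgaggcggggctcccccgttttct
Ulk1: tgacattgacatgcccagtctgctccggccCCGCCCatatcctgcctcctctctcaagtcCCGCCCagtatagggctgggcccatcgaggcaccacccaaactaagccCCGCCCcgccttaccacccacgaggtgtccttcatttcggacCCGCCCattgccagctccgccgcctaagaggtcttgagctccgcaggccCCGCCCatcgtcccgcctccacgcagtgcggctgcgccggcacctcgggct
Bnip3: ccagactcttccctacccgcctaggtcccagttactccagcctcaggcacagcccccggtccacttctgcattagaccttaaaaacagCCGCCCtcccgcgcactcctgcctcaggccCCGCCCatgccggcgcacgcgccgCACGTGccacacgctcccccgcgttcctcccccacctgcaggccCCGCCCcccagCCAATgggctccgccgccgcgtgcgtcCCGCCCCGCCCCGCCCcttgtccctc
Trp53inp2: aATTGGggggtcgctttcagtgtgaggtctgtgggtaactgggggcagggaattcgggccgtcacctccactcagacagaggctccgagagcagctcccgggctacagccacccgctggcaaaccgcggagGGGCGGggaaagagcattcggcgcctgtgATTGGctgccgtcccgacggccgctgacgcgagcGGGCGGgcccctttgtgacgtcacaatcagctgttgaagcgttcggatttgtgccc

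The Sqstm1 window holds 3 GC boxes, the nearest of them 33 bases before the start. The Ulk1 window holds 5, and the Bnip3 window holds 6 GC boxes, of which the last 3 overlap one another, with a CCAAT box 53 bases and an E-box 108 bases before the start. The Trp53inp2 window, which lies inside the gene by the files' coordinates, holds 2 GC boxes and 2 CCAAT boxes. RefSeq promoter windows of 300 bases, 250 before and 50 after the start, were matched for 34 of the 43 genes, in 37 windows. The GC box stood in 62.2% of these windows, against 35.7% of all 32851 windows in the table, searched on both strands. Median GC content was 60% in the autophagy gene windows and 52.7% in all windows, so the windows differ in base composition, which bears on any match to a GC-rich motif. CACGTG stood in 5 autophagy gene windows (13.5%), those of Atg3, Atg5, Atg7, Atg14 and Bnip3, against 7.15% of all windows. The FoxO-type letters GTAAACA stood in 0 of the 37 windows and in 3.65% of all windows. The antioxidant-response letters TGACNNNGC stood in 3 windows (8.11%), those of Atg13, Map1lc3b and Ulk2, against 12.4% of all, and CCAAT in 32.4% against 37.4%. These matches describe letters in short windows and say nothing of which factor binds.

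Each library held between 14939830 and 23580603 reads in genes, and both extremes were TV libraries. All 8 skeletal muscle fibre markers were expressed, with a summed FPKM of 39296 to 47181 in TL, 37756 to 76106 in TV and 44605 to 57709 in NTV. Other tissue was present in small amounts beside the fibre markers, and some of it moved with the groups or varied within them. The 6 white adipocyte markers summed to 61.8 to 787 FPKM in TL, 116 to 625 in TV and 45.2 to 186 in NTV, with 0 called in each comparison. Of 5 tendon cell markers, 4 fell in TV and 4 in TL relative to NTV, and of 5 markers of fibro-adipogenic progenitors (the connective tissue cells of muscle) 3 fell in TV and 2 in TL. Of 6 endothelial markers 2 fell in TV and 3 in TL relative to NTV, 1 of 4 brown adipocyte markers fell in TV and 1 of 4 smooth muscle and pericyte markers fell in TL. Upwards, 2 of the 8 fibre markers and 1 of 3 satellite cell markers rose in TV, and 1 fibre marker rose in TL. On principal component 2, TL replicates 1 and 5 scored 31.9 and 32.6 and the other 10 libraries -16.6 to 3.07. Ucp1, which marks brown adipocytes, was above 2 FPKM in 3 libraries, TL replicate 1 (58.3), TL replicate 5 (3.97) and NTV replicate 5 (53.4). The 4 brown adipocyte markers summed to 182 to 233 FPKM in NTV, so most of that sum came from markers other than Ucp1. Whether the 1 marker that fell in TV reflects brown fat was not tested. Reads of the mitochondrial genome made up 6.04% to 13.9% of reads in TL, 5.08% to 7.70% in TV and 11.6% to 13.5% in NTV. The part of these differences in the results was not tested, and in RNA from whole muscle fewer cells of a type and less RNA per cell cannot be told apart. Without TL replicates 1 and 5, an alternative chosen after the data were seen, the calls among autophagy genes numbered 16 for TV against NTV, 0 for TL against TV and 3 for TL against NTV, compared with 18, 0 and 4 with all libraries. Bnip3, Gabarapl1 and Pik3c3 then lost their call in TV against NTV and Trp53inp1 gained one. Without the 3 libraries with Ucp1 the calls numbered 12, 0 and 1, and Pink1, Gabarap, Gabarapl2 and Uvrag lost their call too. Over all tested genes, the calls in the same order numbered 3217, 66 and 1123 with all libraries. They numbered 3056, 4 and 1255 without TL replicates 1 and 5, and 2217, 0 and 712 without the libraries with Ucp1.

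In TV against NTV, 13.8% of all tested genes were called higher and 11.5% were called lower, whereas 39.0% of the 41 autophagy genes were called higher and 4.88% lower. The median log2 change was 0.25 over the autophagy genes and 0.02 over all tested genes, with a range from -1.36 to 1.09 among the autophagy genes. The 4 TV and the 4 NTV libraries did not overlap for 20 autophagy genes, 17 higher and 3 lower in TV, compared with 27.1% of all genes in either direction. The 16 and 2 calls depend on how libraries are put on a common scale: with an equal total for each library 10 were higher and 2 lower, beside 1212 higher and 1005 lower of all 12754 tested genes. With an equal total without the mitochondrial and the 50 most abundant genes 11 were higher and 4 lower, beside 1174 and 2010 of all genes, and with quantile normalization 11 and 3, beside 1514 and 1628. Bnip3, Gabarapl1, Gabarapl2 and Pik3c3 lost their call under each of these 3 scalings, Gabarap under the first and the third, and Uvrag under the first and the second. All 18 called genes kept their direction under each of the 4 other scalings tried.

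**Figure D1:**
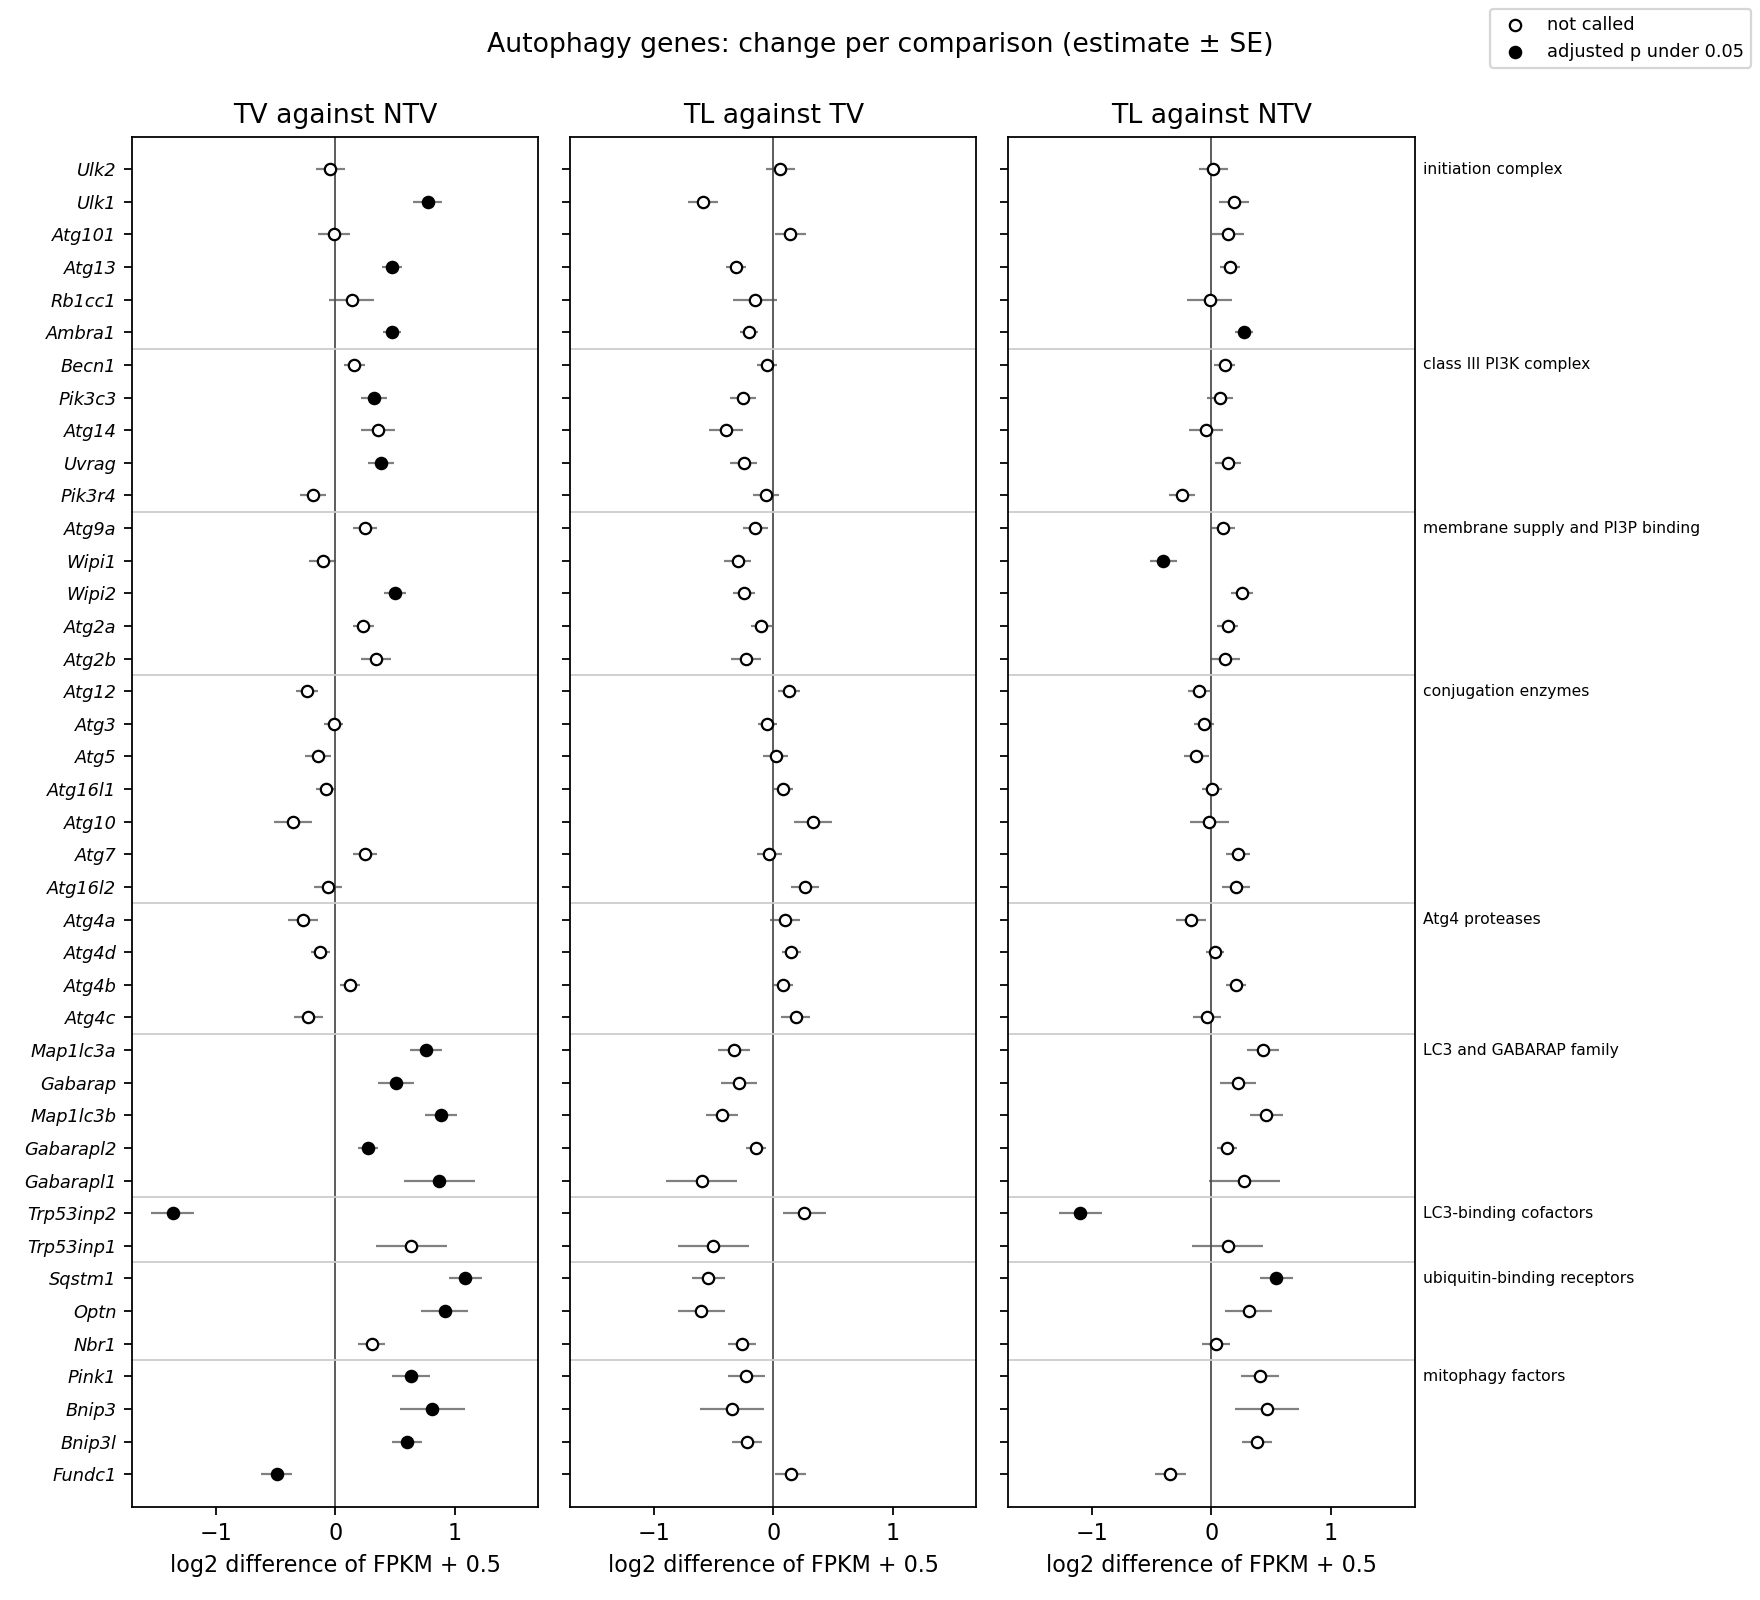
Log2 difference of FPKM + 0.5 ± SE (horizontal axis) for the 41 testable autophagy genes (vertical axis, grouped by role) in the 3 comparisons, a panel each; filled points have an adjusted p under 0.05. Filled points are 16 to the right and 2 to the left in TV against NTV, 0 in TL against TV, and 2 on each side in TL against NTV.

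The initiation complex has 6 genes, of which 3 rose with the tumour. Ulk1, the kinase that starts autophagy, was 17.9, 16.6, 17.4 and 15.5 FPKM in TL replicates 1, 4, 5 and 7, 30.3, 28.2, 22.5 and 21.9 in TV replicates 3, 4, 6 and 8, and 14.8, 17.5, 12.8 and 14.03 in NTV replicates 2, 3, 5 and 6; library values below keep this order. All 4 TV libraries lay above every TL and every NTV library, while TL and NTV overlapped. The rise in TV against NTV was 0.77 ± 0.124 (adjusted p = 0.00207 by limma). Ulk2, its close relative with a partly shared function, averaged 25.1 ± 1.403 FPKM in TL, 24.4 ± 4.50 in TV and 24.8 ± 1.82 in NTV (SD, n = 4 each) and gave a change of -0.04 ± 0.122 in TV against NTV, whose sign turns under an equal total (0.0142) and under library weights (0.0195). Atg13, a regulatory subunit of the kinase complex, averaged 16.1 ± 1.35 FPKM in TV and 11.4 ± 0.181 in NTV and rose by 0.47 ± 0.0835 (adjusted p = 0.00303). Ambra1, a scaffold that ties the kinase to the PI3K complex, averaged 6.76 ± 0.458 FPKM in TV and 4.71 ± 0.275 in NTV and rose by 0.48 ± 0.0766 (adjusted p = 0.0021). The remaining subunits, Atg101 and the scaffold Rb1cc1, did not pass the test, with changes of -0.01 ± 0.133 and 0.14 ± 0.187. Rb1cc1 was split within TV, at 12.3, 10.6, 7.15 and 5.69 FPKM.

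Of the 5 genes of the class III PI3K complex, 2 rose. Uvrag, which directs the complex towards later steps, averaged 1.797 ± 0.286 FPKM in TV and 1.25 ± 0.121 in NTV, a change of 0.39 ± 0.111 (adjusted p = 0.0262). Pik3c3, the lipid kinase itself, averaged 5.61 ± 0.339 FPKM in TV and 4.40 ± 0.554 in NTV, a change of 0.32 ± 0.108 (adjusted p = 0.0463). Uvrag was no longer called when NTV 2, 3 or 6, or TV 3 or 4, was omitted singly, with a highest adjusted p of 0.0717. Pik3c3 kept its call only when the omitted library was NTV replicate 6 or TL replicate 4, and its highest adjusted p was 0.114. Becn1, the regulatory subunit beclin 1, gave 0.16 ± 0.0851, Atg14, which targets the complex to new membrane, 0.36 ± 0.143, and Pik3r4, its protein kinase-like subunit, -0.18 ± 0.11; these 3 did not pass the test. Among the genes for membrane supply and PI3P binding, Wipi2, which reads PI3P and recruits the conjugation machinery, was 5.08, 6.09, 4.68 and 4.995 FPKM in TL, 6.12, 6.66, 6.66 and 5.63 in TV and 4.05, 4.38, 4.50 and 4.15 in NTV. TL and TV libraries both lay wholly above NTV, and TV against NTV gave 0.50 ± 0.0914 (adjusted p = 0.00349). Wipi1, a related PI3P reader, gave -0.11 ± 0.114 in the same comparison. The scramblase Atg9a (0.25 ± 0.102) and the lipid transfer proteins Atg2a (0.24 ± 0.0895) and Atg2b (0.34 ± 0.126) did not pass the test.

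The conjugation machinery, which attaches LC3 and GABARAP proteins to the membrane, has 7 genes here. Of these, 0 were called in TV against NTV by limma on FPKM and 0 by voom on reads. By limma, 2 had an unadjusted p under 0.05, Atg12 (lower) and Atg7 (higher). Atg12, the ubiquitin-like protein joined to ATG5, averaged 10.7 ± 1.058 FPKM in TV and 12.6 ± 0.554 in NTV. Atg7, the E1-like enzyme, averaged 2.30 ± 0.209 FPKM in TV and 1.85 ± 0.166 in NTV. Changes over the 7 genes ran from -0.35 (Atg10) to 0.25 (Atg7), with a median of -0.07. The 4 testable Atg4 proteases, which trim LC3 and GABARAP proteins and also remove them from the membrane, gave changes from -0.27 (Atg4a) to 0.12 (Atg4b), with 0 called by either method and 0 at an unadjusted p under 0.05. Under an equal total without the mitochondrial and the 50 most abundant genes, Atg12 (-0.33, adjusted p = 0.0311) and Atg4a (-0.36, adjusted p = 0.0436) were called lower by limma. Atg12 was also called with quantile normalization (adjusted p = 0.0446) and with library weights (adjusted p = 0.0343), and Atg7 was called higher with library weights (adjusted p = 0.042). Atg4b shares 3365 bases with Thap4 on the opposite strand, which had 412 reads per library to its 532, and counting by strand is not stated in the sources used here.

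All 5 LC3 and GABARAP genes passed the test for a rise with the tumour, and Map1lc3a and Map1lc3b also did so under each other scaling and without the libraries with Ucp1. Map1lc3b, which encodes the LC3B protein used as the standard autophagosome marker, was 36.5, 45.1, 34.0 and 34.7 FPKM in TL, 58.4, 58.6, 42.3 and 44.5 in TV and 25.6, 30.6, 24.3 and 27.9 in NTV. Map1lc3a, which encodes LC3A, was the most abundant of the family, at 124, 156, 112 and 124 FPKM in TL, 179, 168, 129 and 172 in TV and 94.3, 109, 86.0 and 91.1 in NTV. For both genes TV and TL lay wholly above NTV, and TL and TV overlapped. The changes in TV against NTV were 0.89 ± 0.136 for Map1lc3b (adjusted p = 0.00172) and 0.76 ± 0.136 for Map1lc3a (adjusted p = 0.00324). A processed pseudogene of Map1lc3b, Gm6055, matches it at 99.73% over 378 bases and had 111 to 458 reads beside 3509 to 10707, so a small share of reads could belong to either.

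The 3 genes of the GABARAP branch, needed for late steps of autophagosome formation, lost their call with an equal total, without the Ucp1 libraries and with quantile normalization. Gabarap was 77.1, 103, 70.2 and 77.0 FPKM in TL, 118, 112, 76.2 and 94.7 in TV and 64.8, 73.3, 66.1 and 72.6 in NTV. Gabarapl2 was 33.1, 38.3, 33.2 and 35.8 FPKM in TL, 39.8, 40.4, 37.1 and 38.0 in TV and 32.1, 32.1, 28.9 and 35.2 in NTV. TV lay above NTV without overlap for both, with TV replicate 6 close to the highest NTV library. Gabarapl1, a FoxO target in muscle, was 30.7, 28.4, 29.6 and 24.6 FPKM in TL, 78.2, 52.7, 21.2 and 38.9 in TV and 24.7, 26.7, 22.7 and 19.6 in NTV. TV replicate 3 was higher than any other library and TV replicate 6 lay inside the NTV range. Changes in TV against NTV were 0.51 ± 0.15 for Gabarap (adjusted p = 0.0281), 0.28 ± 0.0848 for Gabarapl2 (adjusted p = 0.0344) and 0.87 ± 0.297 for Gabarapl1 (adjusted p = 0.0499). Gabarap was not called when NTV 2, 5 or 6, or TV 3 or 4, was omitted singly (highest adjusted p 0.0784), nor Gabarapl2 when NTV 2, 3 or 5, or the same TV libraries, were omitted singly (highest 0.0914). Gabarapl1 kept its call only when the omitted library was TV replicate 6, and its highest adjusted p was 0.121.

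Summed over the 5 genes, which is a per-length level, the family came to 312 ± 40.4 FPKM in TL, 399.7 ± 71.5 in TV and 247 ± 18.4 in NTV (SD, n = 4 each). Map1lc3a made up 41.3% ± 0.902 of the sum in TL, 40.8% ± 3.02 in TV and 38.5% ± 1.41 in NTV. Gabarapl2 made up 11.3% ± 0.819 in TL, 9.92% ± 1.58 in TV and 13.003% ± 1.05 in NTV, and Gabarapl1 9.20% ± 1.43, 11.4% ± 4.05 and 9.48% ± 1.04 in TL, TV and NTV. The order of the genes by level, with Map1lc3a first and Gabarap next, was the same in all 12 libraries, while the 3 lower ones changed places.

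**Figure D2:**
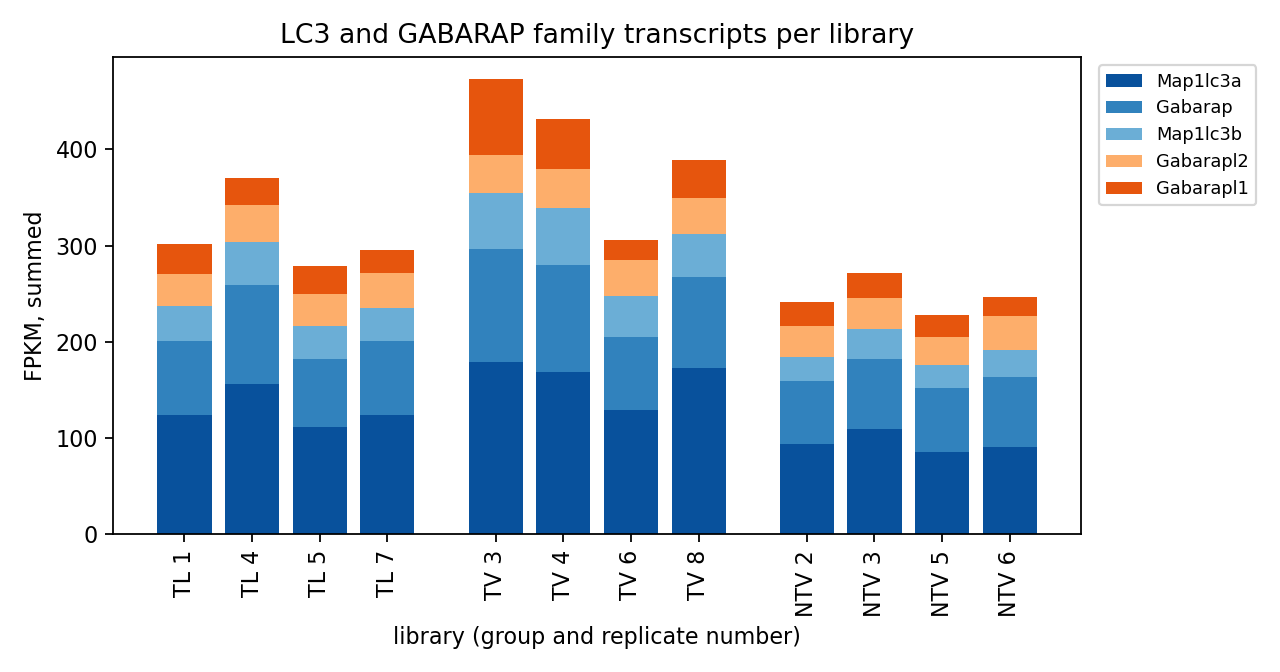
FPKM of the 5 LC3 and GABARAP genes (vertical axis, stacked) in each library (horizontal axis, group and replicate number). The summed level lies at 279 to 371 in TL, 306 to 473 in TV and 228 to 272 in NTV.

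Trp53inp2, also called DOR, leaves the nucleus and binds LC3 and GABARAP proteins when autophagy starts. It was 47.2, 26.3, 44.4 and 35.3 FPKM in TL, 25.8, 30.8, 29.7 and 39.8 in TV and 76.4, 79.9, 91.0 and 76.1 in NTV. Every library of a tumour-bearing mouse lay below every tumour-free library, and TL and TV overlapped. It fell by 1.36 ± 0.179 on the log2 scale in TV against NTV (adjusted p = 0.00122). Trp53inp1, its relative and a p53 target, was 2.38, 6.49, 3.57 and 7.17 FPKM in TL, 7.67, 6.53, 6.50 and 5.78 in TV and 2.496, 5.25, 5.28 and 3.84 in NTV. TV lay above NTV without overlap, but the change of 0.64 ± 0.297 did not pass the test (adjusted p = 0.133), and TL replicates 1 and 5, which stand apart, were its 2 lowest TL libraries.

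Of the ubiquitin-binding receptors, Sqstm1 (p62) and Optn rose. Sqstm1 was 192, 224, 182 and 198 FPKM in TL, 362, 316, 236 and 262 in TV and 132, 150.01, 122 and 141 in NTV. The 3 groups did not overlap, with TV highest and NTV lowest. Its change in TV against NTV was 1.09 ± 0.138 (adjusted p = 0.00107). Optn, which also links damaged mitochondria to LC3, was 24.7, 31.2, 20.6 and 26.4 FPKM in TL, 48.4, 44.1, 27.2 and 39.3 in TV and 19.8, 26.3, 21.3 and 15.6 in NTV, a change of 0.92 ± 0.198 (adjusted p = 0.00727). TV lay above NTV without overlap, with TV replicate 6 close to NTV replicate 3. Nbr1, a receptor that shares its domain layout with Sqstm1, averaged 23.5 ± 2.82 FPKM in TV and 18.8 ± 1.16 in NTV, and its change of 0.30 ± 0.117 did not pass the test (adjusted p = 0.0741).

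All 4 mitophagy genes changed, 3 upwards. Pink1, the kinase that accumulates on damaged mitochondria, had the highest mean level of the 43 genes, at 298, 324, 357 and 340.1 FPKM in TL, 304, 476, 406 and 373 in TV and 245, 303, 199 and 255 in NTV. Its lowest TV library and its highest NTV library were almost level, and the change was 0.63 ± 0.157 (adjusted p = 0.0138). Bnip3l (NIX), a receptor in the outer mitochondrial membrane, was 21.7, 28.7, 24.9 and 27.0 FPKM in TL, 32.9, 33.6, 28.6 and 24.7 in TV and 19.5, 21.5, 16.6 and 20.5 in NTV, a change of 0.60 ± 0.125 (adjusted p = 0.00612). TV lay wholly above NTV. A transcribed pseudogene, Bnip3l-ps, matches it at 99.38% over 1131 bases and had 50 to 185 reads beside 1294 to 3094. Bnip3, a related receptor, was 116, 129, 112 and 114 FPKM in TL, 239, 202, 109 and 94.8 in TV and 85.2, 115, 70.3 and 75.1 in NTV, a change of 0.81 ± 0.268 (adjusted p = 0.0442). Its TV and NTV libraries overlapped, since TV replicates 6 and 8 lay below NTV replicate 3, and the call was kept only when the omitted library was NTV replicate 3, TV replicate 6 or TV replicate 8 (highest adjusted p 0.119). Fundc1, a receptor linked to hypoxia, averaged 9.81 ± 1.53 FPKM in TV and 13.9 ± 1.97 in NTV and fell by 0.49 ± 0.129 (adjusted p = 0.0178), a call lost without NTV replicate 6 (adjusted p = 0.0532). Mitochondrial reads were also fewer in TV than in NTV; their part in these changes was not tested.

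**Figure D3:**
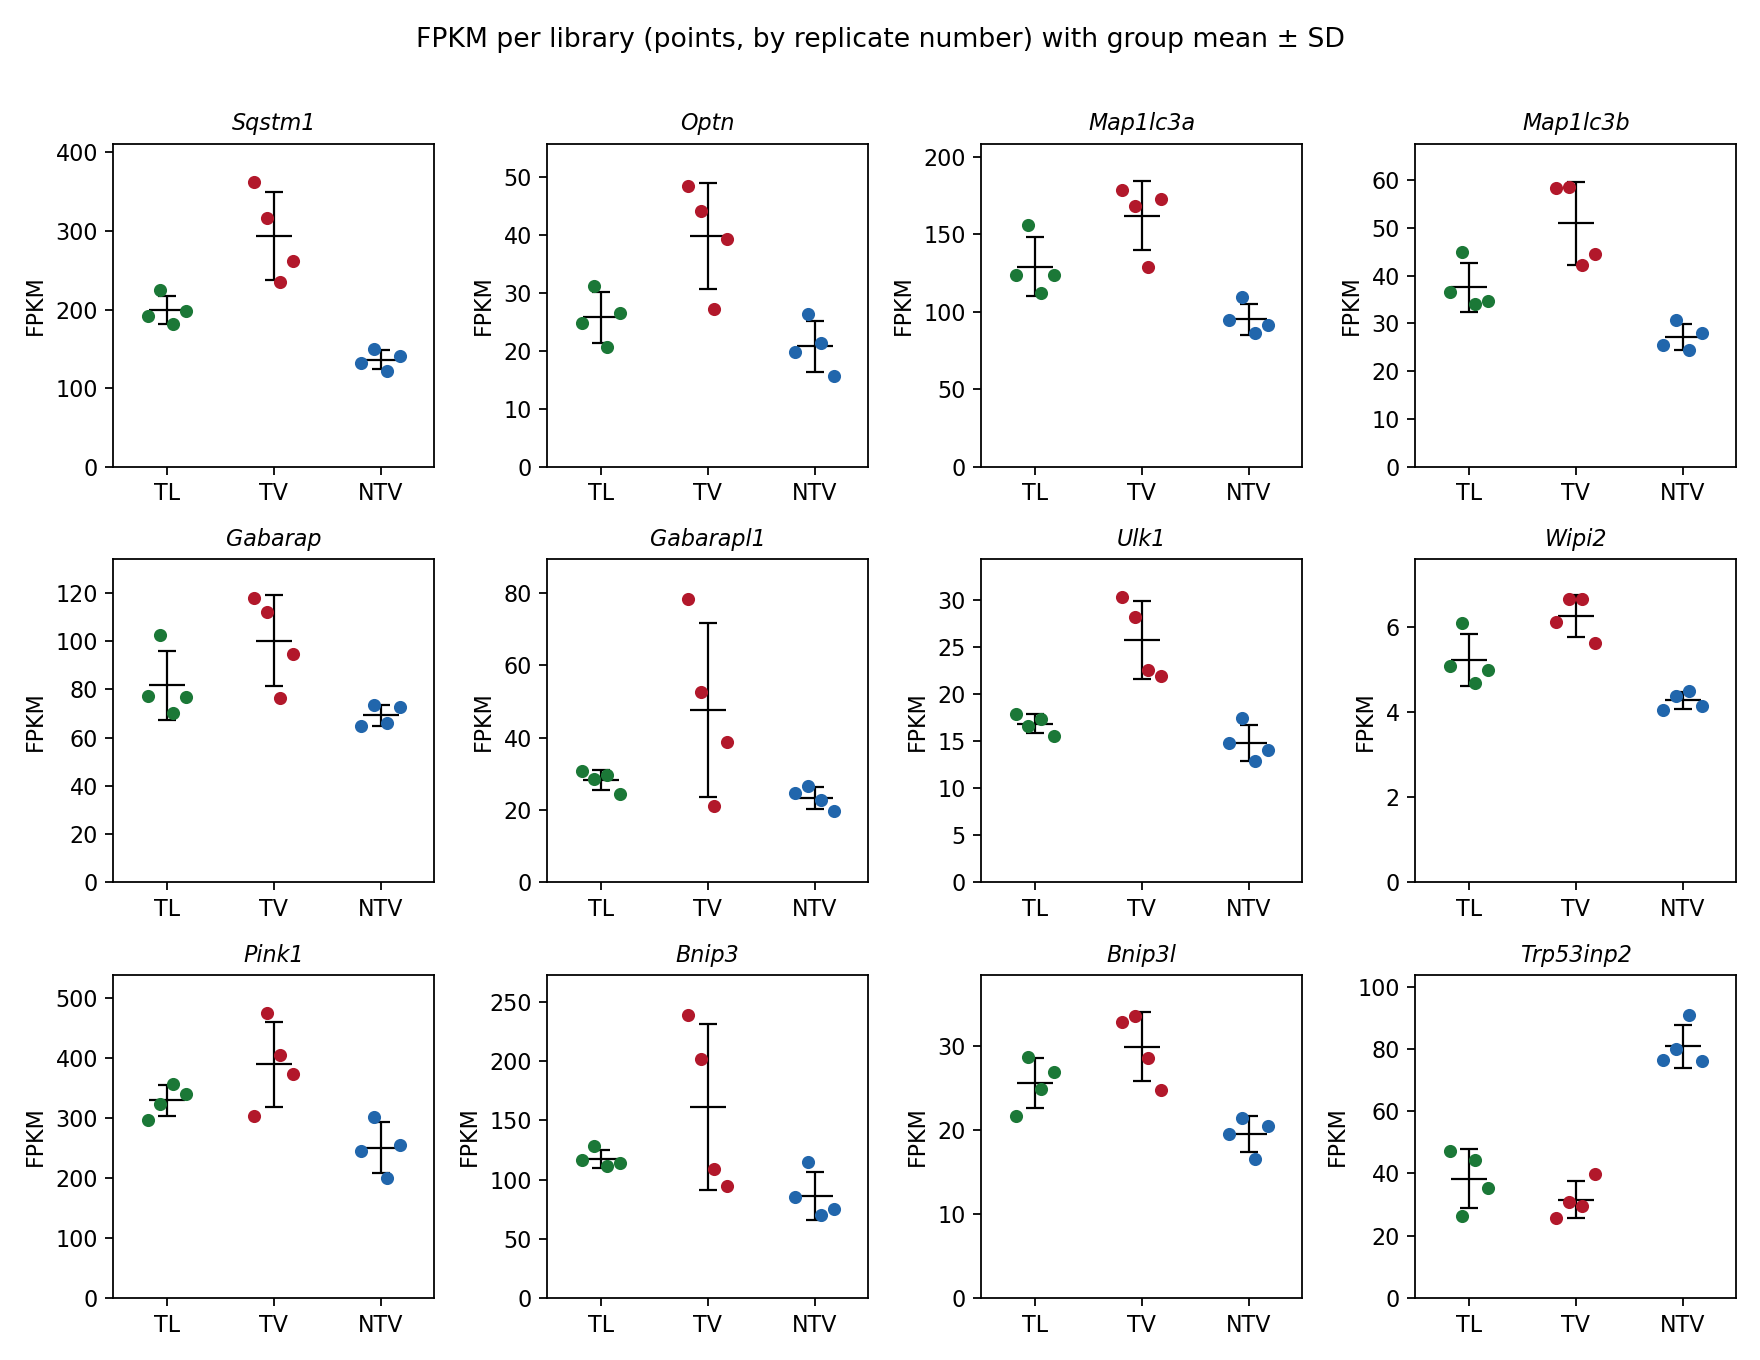
FPKM (vertical axis, from 0, with its own scale in each panel) of the 12 called genes with the largest change in TV against NTV, by group; points are libraries and bars are the mean ± SD of 4. The TV mean is the highest in every panel except that of Trp53inp2, where the 8 libraries of TL and TV lie at 25.8 to 47.2 and those of NTV at 76.1 to 91.0.

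TV libraries differed more among themselves than those of the other groups, with a median coefficient of variation over the 41 testable genes of 9.58% in TL, 13.4% in TV and 8.72% in NTV. TV replicate 3 was the highest TV library for 15 genes and the lowest for 15. The muscle atrophy ligases Trim63 (MuRF1) and Fbxo32 (atrogin-1), picked for this after values were seen, split TV in a like order to Bnip3 and Gabarapl1. Trim63 was 43.5, 215, 49.4 and 134 FPKM in TL, 815, 425, 196 and 185 in TV and 72.2, 118, 58.1 and 70.4 in NTV. Fbxo32 was 17.2, 112, 30.7 and 61.3 FPKM in TL, 278, 277, 121 and 72.7 in TV and 47.0, 54.5, 38.5 and 46.2 in NTV. TV replicates 3 and 4 were thus above replicates 6 and 8 for Bnip3, Trim63, Fbxo32, Ulk1 and Sqstm1 alike. In TL, replicates 4 and 7 were above replicates 1 and 5 for Trim63 and Fbxo32. Reads in genes also fell from TV replicate 3 to 8, at 23580603, 19278447, 18014845 and 14939830. No test was made of this order.

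**Figure D4:**
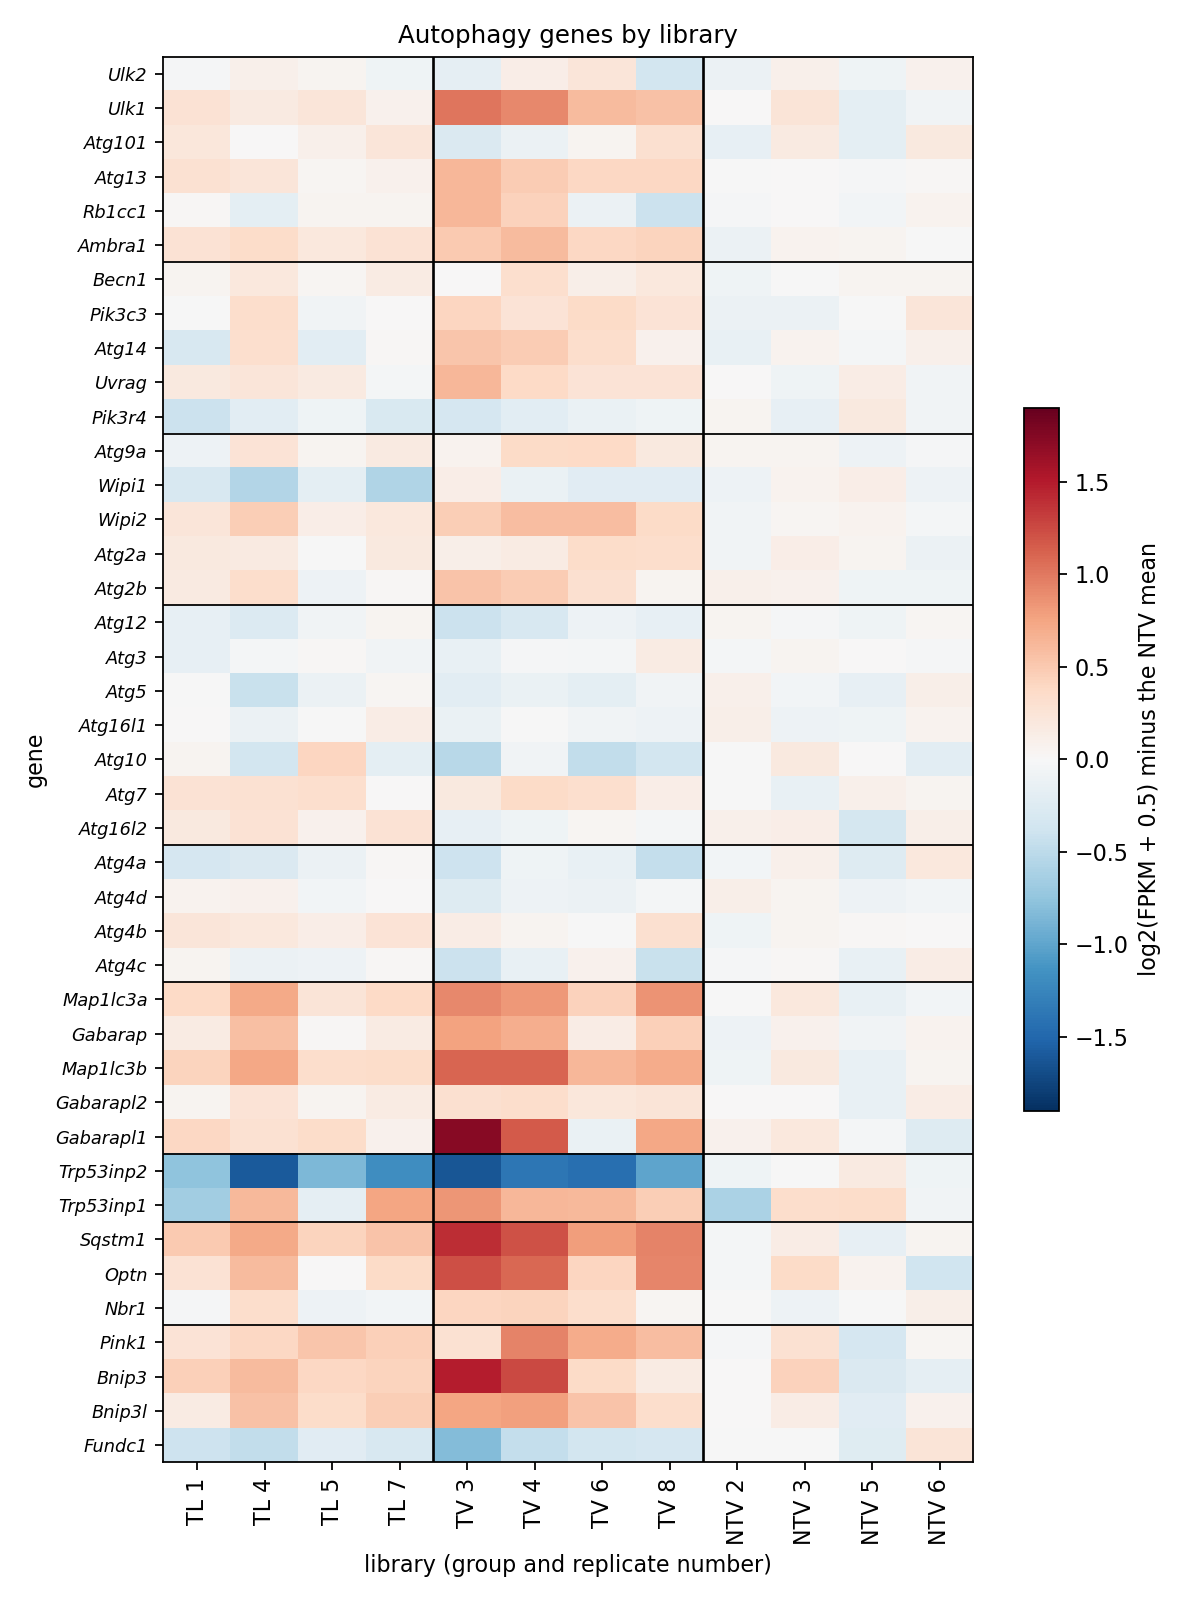
Log2(FPKM + 0.5) of 41 autophagy genes (vertical axis) in 12 libraries (horizontal axis) minus the mean of the 4 NTV libraries; red is above and blue below that mean, and lines part the groups and the roles. The deepest reds are those of TV replicate 3 at Gabarapl1 and Bnip3, and Trp53inp2 is blue in all 8 libraries of TL and TV.

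Selpercatinib was compared with vehicle in tumour-bearing mice. No autophagy gene was called in TL against TV by limma on FPKM or by voom on reads. Over all tested genes 0.235% were called higher and 0.282% lower. By limma, 14 of the 41 autophagy genes had an unadjusted p under 0.05. The share of all tested genes under that unadjusted limit was not counted, so the 14 cannot be set beside the shares called. Fits with library weights called Ulk1 (-0.63, adjusted p = 0.0312) and Sqstm1 (-0.61, adjusted p = 0.0413), beside 86 higher and 146 lower of all 12754 tested genes. Ulk1 was also called without TV replicate 8 (-0.66, adjusted p = 0.0487), beside 24 higher and 58 lower of all tested genes. The median change over the autophagy genes was -0.15 and that over all genes -0.00311, and 28 of the 41 had a negative change. The 4 TL and 4 TV libraries did not overlap for 6 of the 41 autophagy genes, compared with 7.42% of all tested genes. Ulk1, Atg13, Ambra1, Uvrag and Sqstm1 were lower in each TL library and Atg16l2 was higher. For Atg13, Ambra1 and Sqstm1 the TL libraries also lay wholly above NTV, so that the 3 groups did not overlap. The changes with the smallest p were -0.59 ± 0.124 for Ulk1 (adjusted p = 0.07), -0.54 ± 0.138 for Sqstm1 (adjusted p = 0.106) and -0.31 ± 0.0835 for Atg13 (adjusted p = 0.118). With TL replicates 1 and 5 left out, Ulk1 changed by -0.65 (adjusted p = 0.391) and Sqstm1 by -0.46 (adjusted p = 0.629).

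By role, the receptors and the LC3 and GABARAP genes had the lowest medians in TL against TV, at -0.54 over 3 receptors and -0.33 over 5 LC3 and GABARAP genes. Optn (-0.60 ± 0.198), Gabarapl1 (-0.60 ± 0.297), Trp53inp1 (-0.50 ± 0.297) and Map1lc3b (-0.43 ± 0.136) gave the other changes of the largest size and did not pass the test, at adjusted p from 0.175 to 0.434. TL and TV overlapped for these 4 genes. The conjugation genes and the Atg4 proteases had small positive medians of 0.08 and 0.12. Trp53inp2, the strongest fall with the tumour, was 0.26 ± 0.179 higher in TL than in TV, which did not pass the test (adjusted p = 0.513). Without TL replicates 1 and 5 its change was -0.03 and that of Trp53inp1 was 0.05, so the sign of both rests on these libraries.

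Treated tumour-bearing mice were also set against tumour-free mice. In TL against NTV, 4.19% of all tested genes were called higher and 4.62% lower. Among the autophagy genes 2 were higher (4.88%) and 2 lower (4.88%), with a median change of 0.13 against 0.02 over all genes. An unadjusted p under 0.05 was found for 13 of them, and the share of all tested genes under that limit was not counted. Sqstm1 was higher by 0.54 ± 0.138 (adjusted p = 0.0326) and Ambra1 by 0.27 ± 0.0766 (adjusted p = 0.0471). Trp53inp2 was lower, with a change of -1.10 ± 0.179 (adjusted p = 0.00604), and so was Wipi1, with -0.40 ± 0.114 (adjusted p = 0.0491). Wipi1 was 10.5, 8.84, 11.6 and 8.75 FPKM in TL, 14.5, 12.1, 11.3 and 11.2 in TV and 12.4, 13.8, 14.4 and 12.3 in NTV, so TL lay wholly below NTV. The 4 calls became 1, that of Trp53inp2, without NTV replicate 2, 5 or 6 or TL replicate 1, 4 or 7, and 2 without NTV replicate 3 or TV replicate 4. Where 1 call was left, 514 to 858 of all tested genes were called, compared with 1123 with all libraries. Without NTV replicate 3 and without TV replicate 4 these were 711 and 971. Over all single omissions the highest adjusted p was 0.0927 for Sqstm1, 0.119 for Ambra1 and 0.129 for Wipi1. The 2 higher and 2 lower calls became 2 higher (Pink1 and Sqstm1) and 1 lower (Trp53inp2) with an equal total. With an equal total without the mitochondrial and the 50 most abundant genes they became 2 higher (Sqstm1 and Map1lc3b) and 1 lower (Trp53inp2). Size factors from the tested genes alone gave 1 higher (Sqstm1) and 2 lower (Trp53inp2 and Wipi1). Quantile normalization called Sqstm1, Map1lc3a, Map1lc3b, Trp53inp2 and Wipi1. Ambra1 was called under none of these scalings. TL and NTV libraries did not overlap for 10 autophagy genes, 8 higher and 2 lower in TL, compared with 20.8% of all tested genes. The 3 comparisons share libraries, so their values are not independent of each other.

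Several autophagy genes come as pairs of relatives, and the log2 ratio within a pair does not depend on the scale between libraries apart from the added constant. Of 7 pairs compared in 3 ways, 21 exact two-sided permutation tests in all, 5 reached the smallest p that 4 against 4 libraries allow (0.0286), and none was below an adjusted p of 0.12. The Ulk1 over Ulk2 ratio averaged -0.56 ± 0.0925 in TL, 0.08 ± 0.341 in TV and -0.73 ± 0.155 in NTV (SD, n = 4 each). It was higher in 4 of 4 TV libraries than in any NTV library, by 0.82 in the mean, and lower in 4 of 4 TL libraries than in any TV library, with a difference of -0.64. The Trp53inp1 over Trp53inp2 ratio averaged -2.92 ± 1.003 in TL, -2.16 ± 0.409 in TV and -4.15 ± 0.378 in NTV, with a difference of 2.00 in TV against NTV. The Wipi2 over Wipi1 ratio averaged -0.86 ± 0.309 in TL, -0.91 ± 0.197 in TV and -1.52 ± 0.0513 in NTV, so both tumour-bearing groups lay above NTV without overlap, by 0.66 for TL and 0.61 for TV. Map1lc3b over Map1lc3a, Gabarapl1 over Gabarapl2, Bnip3 over Bnip3l and Atg2b over Atg2a overlapped in each comparison, with exact permutation p from 0.2 to 0.8286.

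**Figure D5:**
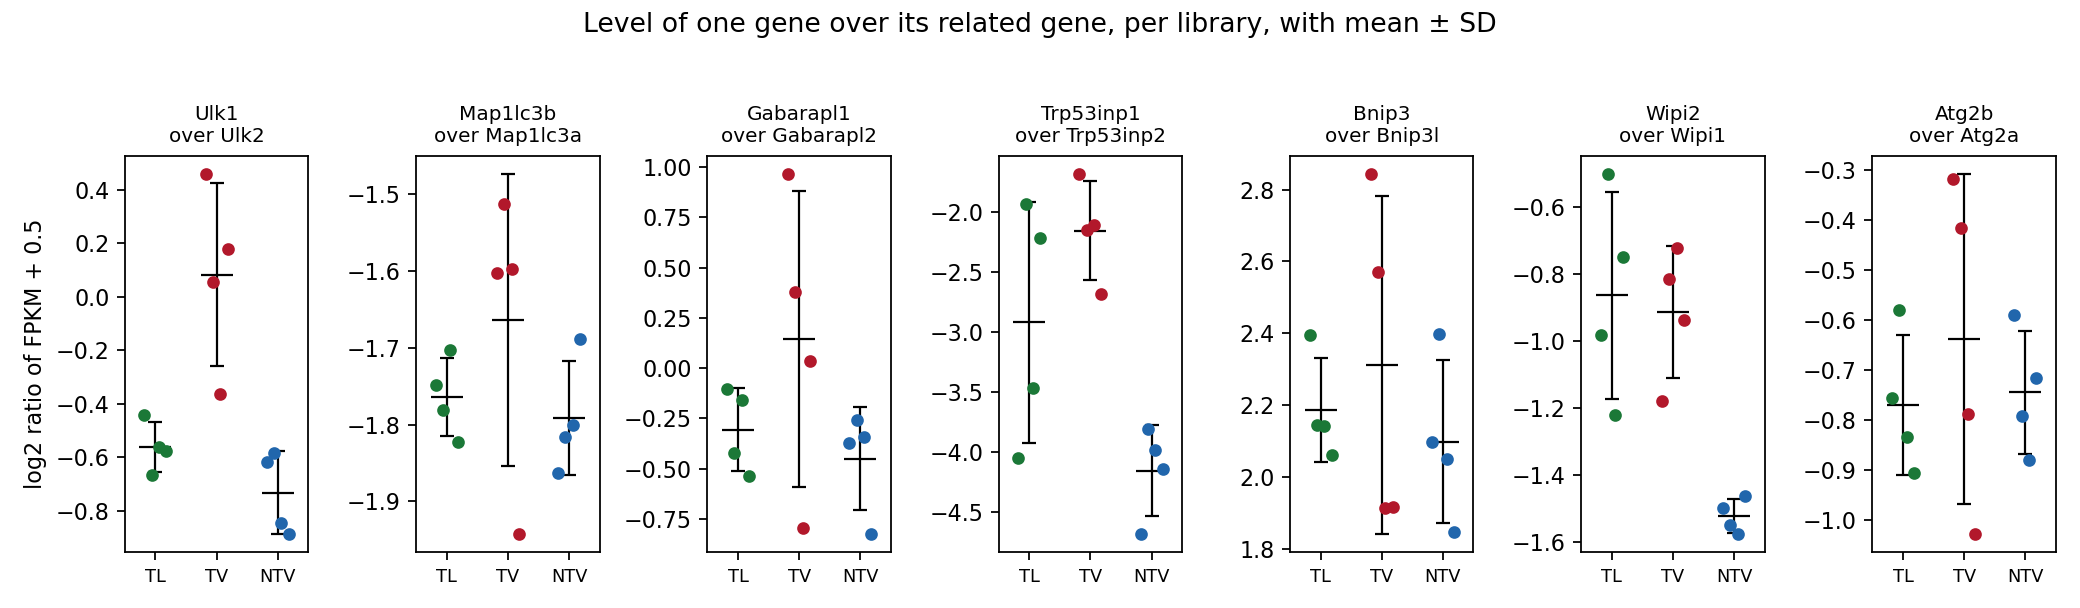
Log2 ratio of FPKM + 0.5 (vertical axis, with its own scale in each panel) for the 7 pairs of related genes by group; points are libraries and bars the mean ± SD of 4. TV lies wholly above NTV for Ulk1 over Ulk2, Trp53inp1 over Trp53inp2 and Wipi2 over Wipi1.

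The 2 autophagy genes below the level for testing were Atg9b and Atg4a-ps. Atg9b, a relative of the scramblase Atg9a, had 2 to 31 reads per library, and its highest counts, 31 in TL replicate 1 and 16 in NTV replicate 5, fell in the libraries with the most Ucp1. It overlaps Nos3 on the opposite strand by 294 bases. Atg4a-ps, which the files list as protein-coding, matches Atg4a at 99.29% over 2115 bases and had 0 to 7 reads, so its reads cannot be told apart from those of Atg4a.

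Around the core machinery, 4 lists of other autophagy genes were counted, to be read beside the 13.8% of all tested genes called higher and 11.5% called lower in TV against NTV. Their median changes there were 0.07 over upstream regulators, 0.20 over lipid and PI3K complex partners, 0.27 over fusion factors and 0.14 over further receptors, against 0.02 over all genes. The 31 calls in these lists became 20 without NTV replicate 6 or TV replicate 4. Calls over all tested genes fell from 3217 to 2240 and 2224 in the same refits. Of 24 upstream regulators, 9 rose and 1 fell in TV against NTV. Ddit4, an inhibitor of mTORC1 (the kinase complex that restrains autophagy), averaged 48.3 ± 45.5 FPKM in TL, 99.7 ± 33.8 in TV and 16.5 ± 16.6 in NTV and rose by 3.22 ± 0.946 (adjusted p = 0.0287). Sesn1, which also restrains mTORC1, rose by 1.45 ± 0.261 (adjusted p = 0.0033), and the transcription factor Foxo1 by 1.31 ± 0.403 (adjusted p = 0.0343). Mtor, the kinase of mTORC1, rose too, by 0.51 ± 0.162 (adjusted p = 0.0376), and so did Rheb, by 0.24 ± 0.0817 (adjusted p = 0.047). The other rises were those of Foxo3, Akt1s1, Stk11 and Tsc1. The 1 fall was that of Prkaa1, with -0.49 ± 0.105 (adjusted p = 0.00722). Tfeb gave -0.18 ± 0.11 and did not pass the test (adjusted p = 0.258). In TL against TV the list gave 1 call, Sesn2, a relative of Sesn1, at 1.41 ± 0.184 FPKM in TL and 0.759 ± 0.0779 in TV, higher by 0.60 (adjusted p = 0.0395). Leaving out any 1 library other than TL replicate 4, TV replicate 6 or TV replicate 8 left 0 calls in the 4 lists. Over all tested genes 7 to 52 were called in those refits, compared with 66 with all libraries.

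Of 15 testable lipid and PI3K complex partners, 4 rose and 1 fell in TV against NTV. Zfyve1, which marks the membrane where autophagosomes form, rose by 1.31 ± 0.256 (adjusted p = 0.00478), Mtmr14, a muscle phosphatase for PI3P, by 0.94 ± 0.0905 (adjusted p = 0.000422) and Pi4k2a, a phosphatidylinositol 4-kinase, by 0.58 ± 0.112 (adjusted p = 0.00452). Of 17 fusion factors, which join autophagosomes to lysosomes, 8 rose and 1 fell. Epg5, a tether, rose by 0.60 ± 0.123 (adjusted p = 0.00592), Lamp2, a lysosomal membrane protein, by 0.58 ± 0.129 (adjusted p = 0.00833) and Rab7, a small GTPase of late endosomes, by 0.57 ± 0.147 (adjusted p = 0.0159). Of 22 testable further receptors, 6 rose and 1 fell. Retreg1, a receptor for the endoplasmic reticulum, averaged 85.2 ± 23.1 FPKM in TL, 202 ± 125 in TV and 49.7 ± 12.3 in NTV and rose by 1.84 ± 0.357 (adjusted p = 0.0046). Calcoco1 rose by 0.72 ± 0.0793 (adjusted p = 0.000719) and Sec62, another receptor for the endoplasmic reticulum, by 0.54 ± 0.115 (adjusted p = 0.00675). These lists were chosen with earlier results of these data known.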

How the data were processed

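RNA of gastrocnemius muscle from 12 mice, 4 each of TL, TV and NTV, was used. The authors deposited 1 table of FPKM values for 54532 genes with gene length in bases, which served here only to recover reads. Per the submitters' processing notes, the tools were featureCounts 1.5.0-p3, DESeq2 and HISAT2 2.05 and the build was mm10, without saying what each was used for; counting by strand is not given in the sources used here. Multiplied by gene length, 100% of the FPKM values in each library came to whole steps within 0.1 read, so reads were recovered. The libraries' scale matched size factors by the median-of-ratios method with relative differences up to 3.655e-11; that method assumes that most genes do not differ. Same-group libraries differed beyond counting error (chi-square per degree of freedom at least 16.4 over 18 pairs).

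Changes were tested with limma 3.58.1 (R 4.3.3) on log2(FPKM + 0.5) with a mean-variance trend, 1 mean per group and all 12 libraries, for genes whose mean FPKM reached 0.5, with Benjamini-Hochberg adjustment over all of them. On simulated TV against NTV values for 12754 genes it recovered 78 of 104 2-fold and 92 of 96 4-fold changes, with 7 false calls among 12554 unchanged genes. The simulation drew independent normal values with 1 spread per gene for all groups. In the data 3217 genes were called and TV libraries varied more, so these rates need not hold there. Paralogue ratios were tested by exact permutation with scipy 1.17.1 on Python 3.11.15 (numpy 2.4.6, pandas 2.3.3, matplotlib 3.10.9). Near copies were searched with BLAST 2.17.0 (at least 95% identity over 200 bases); 9 of the 43 genes had one. All 43 gene IDs were in the GENCODE M21 annotation, 42 with the same coordinates. The number of sample columns left out was 0.

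The genes followed, the roles and the other lists were chosen with earlier results of these data known. Library values are given for the 12 called genes with the largest change in TV against NTV, the 6 largest changes in TL against TV and the LC3 and GABARAP genes; Trim63, Fbxo32 and Wipi1 were added after values were seen. Other lists are represented by up to 3 called genes with the largest change. The further upstream regulators named, Sesn2 among them, were added after values were seen. Alternatives were other pseudocounts, filters and scalings, fits without trend, robust, with library weights, with 2 groups, with the replicate number as a block, voom on reads, and libraries left out. The replicate numbers do not pair the libraries.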

Additional observations from a re-analysis of the deposited data

Results flagged for a closer look

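In a group of 4 libraries, a library was picked out when its gap to the nearest other library exceeded the share of the group's range that Dixon's test allows. Chance alone picks out about 1 in 20 groups, and here it was 7 of the 129 groups (5.43%). TL replicate 4 stood apart 3 times, with Nbr1 at 23.9 FPKM and the other TL libraries at 17.6 to 18.5, Pik3c3 at 5.68 beside 4.18 to 4.41, and Rb1cc1 at 6.73 beside 7.88 to 8.03. TL replicate 5 was low for Atg2a, at 4.46 FPKM beside 5.12 to 5.17. TL replicate 7 was low for Atg7, at 1.84 FPKM beside 2.32 to 2.42. NTV replicate 5 was low for Atg16l2, at 0.889 FPKM beside 1.36 to 1.41. TL replicate 1 was high for Atg9b, at 0.425 FPKM (31 reads) beside 0.0291 to 0.0645; it is also the library with the most Ucp1.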

How the results depend on the processing

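In TV against NTV, Sqstm1, Trp53inp2, Map1lc3b, Map1lc3a, Optn, Ulk1, Bnip3l, Atg13, Ambra1 and Wipi2 kept their call under each alternative tried except the replicate block, and so did Trp53inp2 in TL against NTV. The replicate block called 0 of all tested genes in each of the 3 comparisons. A term for each replicate number leaves few degrees of freedom with 12 libraries, so no conclusion is drawn from its lack of calls. Same-numbered libraries correlated at 0.0142 to 0.133 in their deviations from the group means, so the numbers show no pairing. The called autophagy genes numbered 12 to 19, 0 to 1 and 1 to 5 when each library was left out (for TV against NTV, then TL against TV, then TL against NTV, here and below); their median change ran from 0.23 to 0.29, -0.22 to -0.13 and 0.08 to 0.15, and the calls in the 4 other lists, 31, 1 and 8 with all libraries, ran from 20 to 30, 0 to 4 and 2 to 9. The count of 18 fell to 12 without NTV replicate 2, TV replicate 3 or TV replicate 4. Calls over all tested genes fell from 3217 to 2278, 2223 and 2224 in these refits. Over all single omissions they ran from 2223 to 3443, 7 to 282 and 514 to 1289, compared with 3217, 66 and 1123 with all libraries. In TV against NTV, no filter and leaving out the Ucp1 libraries each gave 20 calls in the other lists, and the equal total without abundant genes gave a median of 0.17. In TL against TV, library weights gave 2 autophagy genes, 4 genes of the other lists and a median of -0.24, beside 232 calls over all tested genes. The median was -0.0814 with an equal total and -0.0688 with an equal total without abundant genes, which moved the median of all genes up by 0.0659 and 0.0752. The other lists gave 0 calls there with no filter, an equal total, quantiles, 2 groups, without the Ucp1 libraries and without TL replicates 1 and 5. In TL against NTV, autophagy gene calls fell to 1 with no filter and without the Ucp1 libraries, and to 2 without the trend; other-list calls were 3 with no filter and without the Ucp1 libraries and 4 with an equal total, whose median was 0.24 while all genes shifted by 0.11. The causes were not tested.

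Some changes turned sign. With each library left out, the change of Ulk2 ran from -0.132 to 0.0601 in TV against NTV, -0.0446 to 0.147 in TL against TV and -0.0192 to 0.0472 in TL against NTV; it was 0.0142 (equal total) and 0.0195 (library weights) in the first, -0.013 (library weights) in the second and -0.0155 (Ucp1 libraries out) in the third. Wipi1 gave 0.00757 under the replicate block in TV against NTV. In TL against TV, without the Ucp1 libraries and without TL replicates 1 and 5, Trp53inp2 gave -0.0288 and Trp53inp1 0.0472, compared with 0.26 and -0.50 with all libraries. In TL against NTV, Trp53inp1 gave -0.0681 under the replicate block and -0.0697 to 0.401 with each library left out, and Pik3c3 -0.0174 to 0.147. Of 1680 refits of the 20 remaining genes, 1606 kept direction and side of the threshold, 59 changed sign without a call and 15 became called.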

Other observations

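The 4 lists of other autophagy genes were also counted in TL against NTV, where 8 genes passed the test by limma; they are named after their values were seen. Of all tested genes, 4.19% were called higher and 4.62% lower. The 8 calls became 2 without NTV replicate 5 or 6, 3 without NTV replicate 3, TL replicate 4 or TL replicate 7, and 4 without NTV replicate 2. They became 3 with no filter on low values or without the libraries with Ucp1, 4 with an equal total and 0 with the replicate block. Calls over all genes, 1123 in the main fit, were 514 to 711 in the single omissions named. They were 742 with no filter, 712 without the libraries with Ucp1, 729 with an equal total and 0 with the replicate block. Of the 24 upstream regulators 3 were higher and 0 lower in TL: the transcription factor Foxo3 by 0.75 ± 0.173 (adjusted p = 0.0219), the mTORC1 inhibitor Tsc1 by 0.56 ± 0.151 (adjusted p = 0.0426) and Sesn2 by 0.40 ± 0.112 (adjusted p = 0.0473). Of 15 lipid and PI3K complex partners, Mtmr14 was higher by 0.58 ± 0.0905 (adjusted p = 0.00513) and Nrbf2, a subunit of the PI3K complex, was lower with -0.49 ± 0.12 (adjusted p = 0.0284). Of 17 fusion factors 1 was higher, Lamp2, and of 22 further receptors 2 were higher, Calcoco1 and Sec62.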
